A study of Mus musculus with 5 samples.

Results

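V5-KLF5 summits were examined at the ends of long non-coding RNA (lncRNA) genes. KLF5 is a Krüppel-like factor that binds DNA through zinc fingers, and chromatin immunoprecipitation followed by sequencing (ChIP-seq) reports where it sat on DNA. A summit, the highest point of a called peak, was taken where it lay on chromosomes 1 to 19 within 1000 bp of a start or end of a lncRNA gene and more than 1000 bp from every start or end of a protein-coding gene. By this rule 1971 of the 44760 peaks on these chromosomes were chosen (4.40%, exact 95% interval 4.22 to 4.60), of 45378 in the whole list. They are called lncRNA-end summits below. The rule uses position alone, so the strength of these peaks was free to vary.

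Peaks came from mouse embryonic stem (ES) cells derived from C57B6/J mice, labelled wild type and overexpressing V5-KLF5, immunoprecipitated with an anti-V5 antibody. The same cells were also precipitated with normal mouse IgG, and ES-D3 cells, labelled wild type and carrying no tagged protein, with anti-V5. The inputs of both kinds of cells served as background. Each kind of sample was sequenced as a single library, which leaves nothing to gauge the spread between replicates. Endogenous KLF5 in cells without the transgene was not measured here, and the tagged protein was present in excess.

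KLF5 binds GC-rich DNA and CACCC elements, and with Klf2 and Klf4 it supports self-renewal of ES cells. LncRNA genes give transcripts that are not translated. Many start at promoters of their own, others at enhancers or beside the promoter of a coding gene, and some host small RNAs in their introns. Gene models of lncRNAs range from curated transcripts to predictions, so the position of an end is known better for some than for others.

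Sequences at 8 starts are given as examples of what lay under these summits. They were chosen as the strongest 6 among the named genes whose summit fell inside a RefSeq promoter window (250 bases before to 50 after a listed start, GRCm38.p6), with Dancr and Oip5os1 added as well-known lncRNAs. Each is the stretch of up to 80 bases on either side of the summit that the window holds, on the gene's strand. Capitals mark matches to GGGNGGGG (which includes GGGCGGGG) or CCACACCC on either strand, motifs that resemble the GC box and CACCC box bound by this family.
Evx1os, chr6:52314846-52315006, minus strand: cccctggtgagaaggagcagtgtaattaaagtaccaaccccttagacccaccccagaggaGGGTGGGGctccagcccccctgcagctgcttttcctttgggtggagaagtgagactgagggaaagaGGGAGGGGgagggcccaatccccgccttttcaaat
Gm40577, chr12:110418015-110418107, minus strand: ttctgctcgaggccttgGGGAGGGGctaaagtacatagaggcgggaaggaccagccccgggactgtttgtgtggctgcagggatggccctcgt
Gm52705, chr4:118260640-118260789, plus strand: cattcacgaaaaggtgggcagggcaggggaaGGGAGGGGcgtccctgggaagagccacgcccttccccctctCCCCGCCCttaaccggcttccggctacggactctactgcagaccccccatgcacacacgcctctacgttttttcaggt
Platr22, chr1:136696072-136696232, plus strand: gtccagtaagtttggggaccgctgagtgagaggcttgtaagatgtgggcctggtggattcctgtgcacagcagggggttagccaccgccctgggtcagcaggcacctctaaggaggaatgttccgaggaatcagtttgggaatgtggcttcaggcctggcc
Platr26, chr2:71719175-71719335, plus strand: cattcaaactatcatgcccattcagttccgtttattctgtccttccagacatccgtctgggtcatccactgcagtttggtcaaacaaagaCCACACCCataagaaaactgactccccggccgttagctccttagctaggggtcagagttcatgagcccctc
LOC118027456, chr6:134243807-134243967, minus strand: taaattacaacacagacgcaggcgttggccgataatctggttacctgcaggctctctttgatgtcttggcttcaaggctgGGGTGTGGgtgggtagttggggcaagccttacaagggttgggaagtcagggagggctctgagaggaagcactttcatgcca
Dancr, chr5:74093012-74093109, plus strand: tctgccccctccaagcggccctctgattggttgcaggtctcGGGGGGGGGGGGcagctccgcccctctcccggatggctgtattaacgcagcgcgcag
Oip5os1, chr2:119594208-119594345, plus strand: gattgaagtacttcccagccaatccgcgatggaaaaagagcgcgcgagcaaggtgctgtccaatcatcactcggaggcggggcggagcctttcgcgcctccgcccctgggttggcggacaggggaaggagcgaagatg

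All hold a match except those of Platr22 and Oip5os1. The match in LOC118027456 begins at the summit itself. Fold enrichment, the authors' ratio of the pileup of extended tags to the input background, was 36.4 at Evx1os, 31.7 at Gm40577, 29.6 at Gm52705 and 29.0 at Platr22. It was 14.9 at Platr26, 12.2 at LOC118027456, 11.5 at Dancr and 9.27 at Oip5os1. A stretch without a match thus lay under one of the strongest of them. The same stretch was also read at the other named genes with a summit in such a window. It held a match at Platr8. At Snhg5 (12.1), Dubr (10.9), Snhg9 (10.7), Malat1, Fendrr, Gm39001, Halr1 and Pantr2 it held none. Matches were thus less common at these genes than among the 8 shown.

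Control lists held almost nothing at these places. The IgG list had 3 peaks in all and the list of untagged cells 0, from libraries of similar depth (28.8, 31.9 and 28.2 M tags for the V5-KLF5, IgG and untagged immunoprecipitates, where M is mega). One IgG summit met the rule, at AY036118, a lncRNA model in the ribosomal RNA sequence of chromosome 17. The V5-KLF5 peak there, at 39847860 to 39848893, had a fold enrichment of 2.88 on an input background of 122, and the IgG peak at 39848400 to 39848821 had 1.80 on 136. Both stand far above the median background of 3.45 under lncRNA-end summits. The control of untagged cells is labelled ES-D3, whereas its file header names JM8.N4, so its line is uncertain.

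Summits lay more densely at lncRNA ends than in the rest of the genome, and less densely than at coding ends. Bases that meet the rule made up 1.79% of the span of annotated genes on chromosomes 1 to 19 (43.7 Mb), against 4.40% of summits, a ratio of 2.46 (interval 2.35 to 2.57). This came to 45.1 summits per Mb (exact Poisson interval 43.1 to 47.1). Within 1000 bp of coding ends there were 158.7 per Mb (155.8 to 161.5), and farther than 1000 bp from ends of both kinds 13.3 (13.2 to 13.5). The spans include sequence that cannot be mapped, and the intervals cover counting error in 1 library only.

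The 5′ end carried most of this density. Strand was known for 9291 of the 12408 lncRNA genes (74.9%), from the RefSeq promoter table. It was known for 0 of the 422 genes of chromosome 18, so all values for 5′ and 3′ ends leave out that chromosome. Within 200 bp of a 5′ end there were 139.5 summits per Mb (126.9 to 153.1), and within 200 bp of a 3′ end 18.4 (14.2 to 23.4), a ratio of 7.60. Both densities leave out bases within 1000 bp of coding ends. The 200 bp just upstream of the start held 261 summits, or 162.2 per Mb, and the first 200 bp downstream 187, or 116.4 per Mb. By 800 to 1000 bp the density had dropped to 33.3 upstream and 47.7 downstream. Around the 3′ end there was no rise, with 19.8 per Mb in the last 200 bp of the gene and 16.4 in the first 200 bp beyond it. A bin 2600 to 2800 bp beyond the end was about as low, at 16.9. From 1000 to 3000 bp inside the gene there were 35.1 per Mb (32.4 to 38.0), and from 1000 to 3000 bp beyond it 25.6 (23.3 to 28.1). The interval at the 3′ end (14.2 to 23.4) thus lies below that inside the gene and only just meets that beyond it. The stretch inside the gene includes the start of genes of 1000 to 3000 bp, so its density is not that of gene bodies alone.

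**Figure D1:**
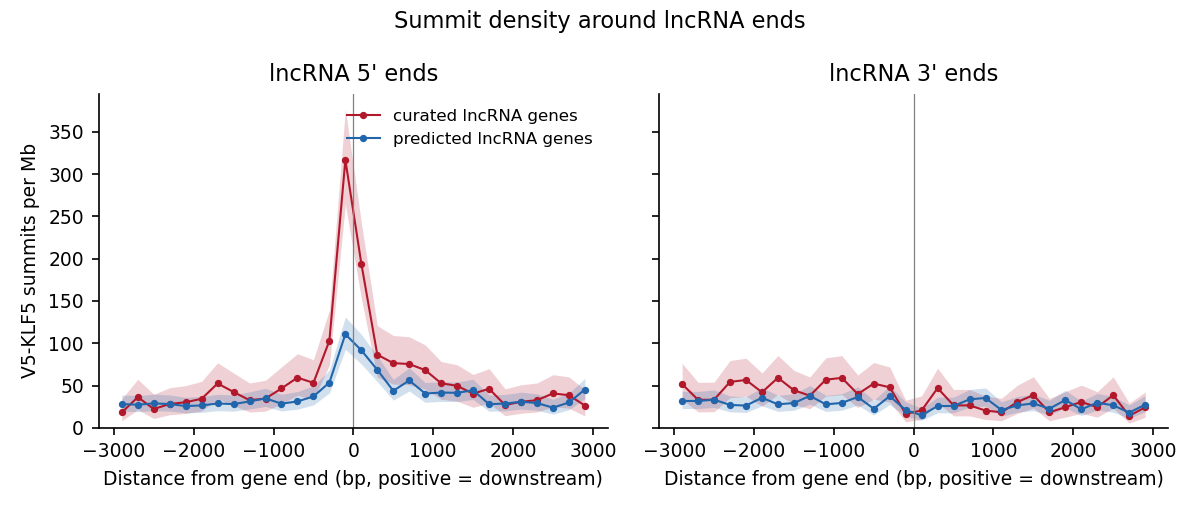
Summits per Mb (vertical axis) in bins of 200 bp by distance in bp from lncRNA 5′ ends (left) and 3′ ends (right), for curated and predicted lncRNA genes, leaving out bases within 1000 bp of coding ends. Shading is the exact Poisson interval of each bin, and both classes peak at the 5′ end and neither at the 3′ end.

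Curated genes, those with a RefSeq NR transcript, showed the sharper rise. Their 5′ ends had 255.6 summits per Mb within 200 bp (221.7 to 293.2), against 101.2 (88.9 to 114.7) at genes with predicted transcripts alone. At 3′ ends the values were 18.5 and 18.3 per Mb. From 1000 to 3000 bp upstream of the start they were 33.2 (28.3 to 38.7) and 28.7 (25.8 to 31.8), with intervals that overlap. A gap also stood 1000 to 3000 bp inside the 3′ end, with 47.0 per Mb at curated genes (41.0 to 53.5) and 30.8 at predicted ones (27.8 to 34.0). In genes of 1000 to 3000 bp that stretch includes the start, since bases near lncRNA 5′ ends were not left out. The classes therefore differed most at the start, and a difference away from starts is not shown.

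Counted by gene, 1720 of 12408 lncRNA genes had at least 1 lncRNA-end summit (13.9%). The corresponding share of protein-coding genes with a summit within 1000 bp of an end was 52.5%. To set the classes side by side, genes whose ends lay more than 2000 bp from any (other) coding end were taken. Of 9753 such lncRNA genes, 1338 had a summit within 1000 bp of an end (13.7%, 13.0 to 14.4), and of 13798 such coding genes 5952 had one (43.1%, 42.3 to 44.0). The classes lay farther apart at the start of the gene than at its end. At 5′ ends, 10.8% of lncRNA genes (10.1 to 11.6) and 40.7% of coding genes (39.8 to 41.6) had a summit. At 3′ ends, 5.20% (4.70 to 5.73) and 5.11% (4.71 to 5.54) did.

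**Figure D2:**
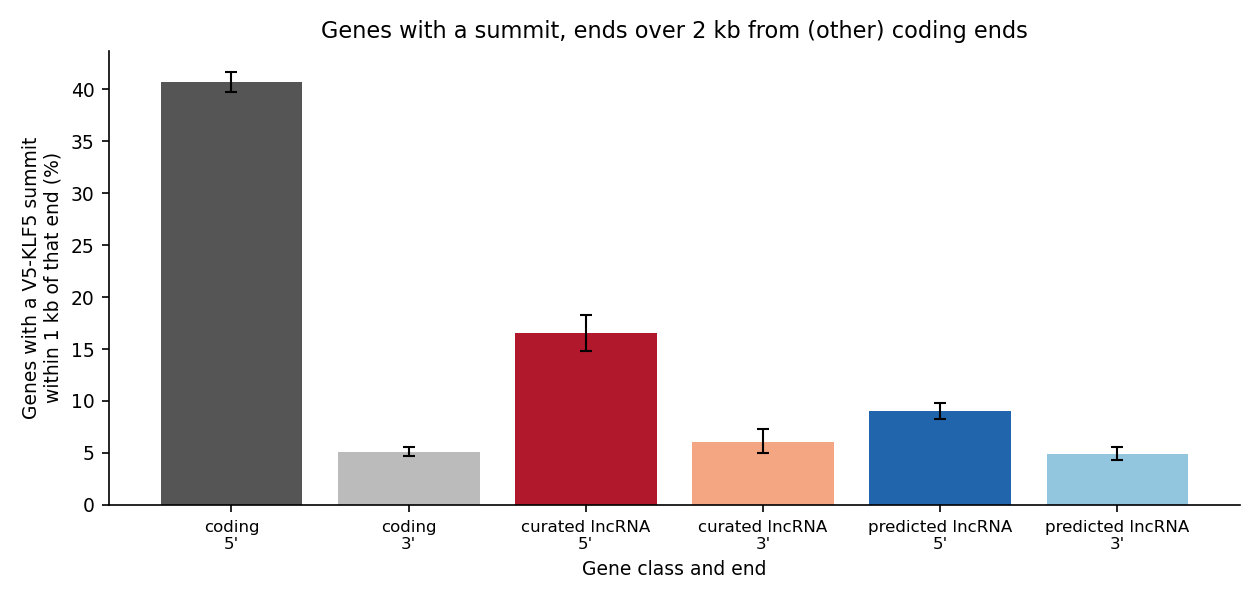
Percent of genes (vertical axis) with a V5-KLF5 summit within 1000 bp of the named end, for genes whose ends lie more than 2000 bp from other coding ends. Bars are shares and lines exact 95% intervals; shares at 5′ ends run from 8.99% (predicted lncRNA) to 40.7% (coding), those at 3′ ends from 4.92% to 6.05%.

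Among these spaced lncRNA genes, 16.5% of curated (14.8 to 18.3) and 8.99% of predicted genes (8.25 to 9.78) had a summit at the 5′ end, and 6.05% and 4.92% at the 3′ end. Shorter genes had one more often at either end. The share ran from 18.9% of the 270 genes of up to 1000 bp, through 16.5% from 1000 to 5000 bp and 13.6% from 5000 to 20000 bp, to 10.1% of the 2436 longer genes. In short genes the 2 windows overlap. Among genes of more than 5000 bp, where they do not, 9.99% had a summit at the 5′ end and 3.80% (3.29 to 4.36) at the 3′ end, and 42 of 5053 had one at both. Coding genes of this length had 48.5% at the 5′ end and 5.04% (4.58 to 5.53) at the 3′ end, so the 3′ shares of long genes did not overlap.

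The middle of the strength range was close to that of the whole list. Fold enrichment of lncRNA-end summits ran from 2.31 to 41.8, within the 1.42 to 58.7 of all peaks, with a median of 5.17 (interval 5.12 to 5.36) and quartiles of 4.14 and 7.75 (4.15 and 7.48 over all peaks). The median was 5.18 over all peaks, 5.60 at coding ends and 5.12 at summits near neither kind of end. A fold enrichment of at least 10 was reached by 282 lncRNA-end summits (14.3%, 12.8 to 15.9), against 13.0% of all peaks, a share that lies within that interval. It was 14.6% at coding ends. The log2 ratio of the median to that at coding ends was -0.12. This order turned among stronger peaks: with a −log10 q of at least 10 the median at lncRNA ends was 7.97 and the log2 ratio 0.054.

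The share of lncRNA-end summits changed little with strength. It was 4.59% of the weakest 25% of all peaks, 4.43% from there to the median and 3.93% up to the 75th percentile, then 4.43% between the 75th and 90th percentile, 5.03% up to the 95th, 4.79% up to the 99th and 6.01% in the top 1% (27 of 449 peaks, interval 4.00 to 8.63). Among the 1000 strongest peaks there were 56, or 5.60% (4.26 to 7.21). The interval of the band from the median to the 75th percentile (3.57 to 4.30) lies just below the 4.40% of the whole list. Those of all other bands and of the strongest 1000 include it. The share of coding-end summits rose from 23.0% of the weakest 25% to 31.9% between the 75th and 90th percentile and was 22.7% in the top 1%.

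**Figure D3:**
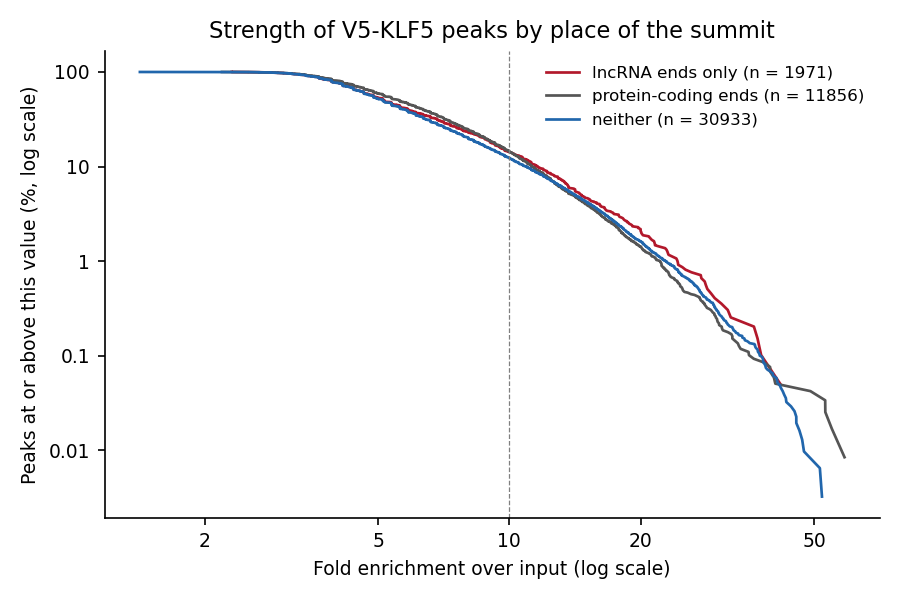
Percent of peaks at or above each fold enrichment (both axes logarithmic) for summits at lncRNA ends only, at protein-coding ends and near neither. The dashed line marks a fold enrichment of 10, where the shares are 14.3%, 14.6% and 12.4%, and the 3 curves lie close together.

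The strongest lncRNA-end summit stood at AI847159 on chromosome 2 (peak at 129178326 to 129179139), 543 bp inside the 3′ end of this short curated gene, with a pileup of 241 and a fold enrichment of 41.8. The nearest coding end was that of Slc20a1, a phosphate transporter gene, 20082 bp away. Gm36826 on chromosome 17 followed with 37.8. Its summit lay within the coding gene Camkmt, a calmodulin methyltransferase gene, 72543 bp from that gene's start. Gm39054 on chromosome 7 had 37.1 at 173 bp inside its 5′ end, with 2 proline tRNA genes within 1000 bp and Wnt11, which encodes a secreted WNT ligand, 18780 bp away.

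Evx1os, the opposite-strand transcript of the homeobox gene Evx1, had the next summit, with 36.4. It lay 94 bp upstream of the lncRNA start on chromosome 6 (peak at 52313977 to 52315457) and inside Evx1, 1428 bp from the Evx1 start. 1700127F24Rik, Gm40577 and 2310047D07Rik had 32.2, 31.7 and 30.6, all at 5′ ends, and an asparagine tRNA gene lay within 1000 bp of the last. Gm52705, in Ptprf, a receptor tyrosine phosphatase gene, had 29.6 at 20 bp upstream of its start. Platr22, 65761 bp from the pluripotency repressor gene Zfp281, had 29.0 at 59 bp upstream.

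The other 6 of the top 15 were Gm14206 near the keratin gene Krt42, G6bos in Mpig6b, Gm41198 in Pebp4, Gm32755 in Angel1, Gm39001 and Gm52815, with fold enrichments from 28.5 down to 26.2. Among the 15, the nearest end was a 5′ end for 8, a 3′ end for 5 and of unknown strand for 2. Of those nearest to a 3′ end, the summits at G6bos and Gm39001 also lay within 1000 bp of the start of these short genes. Those at AI847159, Gm36826 and Gm14206 did not. Summits of this strength were therefore not restricted to starts. Input backgrounds of the 15 ran from 3.10 to 5.37, below 6.13, the 95th percentile over all peaks.

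At the other extreme, Gm12915 on chromosome 4 and Gm31005 on chromosome 11 had 2.31, each with a pileup of 19 on a background of 7.67. At the limit of the window, Gm52681 and Gm36241 had summits exactly 1000 bp from an end, with fold enrichments of 11.3 and 6.10. The nearest summits outside it, 1001 bp from Gm39623 and Gm1604a, had 4.03 and 5.61.

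Summits within 50 bp of an end had the highest median, without a steady fall farther out. Summits within 50 bp of a lncRNA end had a median fold enrichment of 5.86 (interval 5.38 to 6.59; 18.8% of 170 reached 10), and those 500 to 1000 bp away 5.00 (4.87 to 5.17; 12.3% of 747). The medians at 50 to 100, 100 to 200 and 200 to 500 bp were 5.18, 5.17 and 5.17. A fold enrichment of 10 was reached there by 14.7%, 12.9% and 16.0%. Summits nearest to a 5′ end had a median of 5.17 (1067 summits) and those nearest to a 3′ end 5.12 (479 summits). Of the 25 summits within 100 bp of a 3′ end, 1 reached a fold enrichment of 10, against 43 of the 250 within 100 bp of a 5′ end (4.00%, 0.101 to 20.4, and 17.2%, 12.7 to 22.5). These intervals overlap, so a difference in strength between the ends was not detectable at this number.

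Coding genes were close to some and far from others. Of the 1971 summits, 767 lay inside a coding gene, with a median fold enrichment of 5.00 (4.87 to 5.17), and 1204 outside, with 5.36 (5.12 to 5.59). For comparison, 16889 of the 30933 summits near neither kind of end lay inside a coding gene, a larger share. Of the 1204 lncRNA-end summits outside, 210 lay 1 to 5 kb from the nearest coding end and 199 lay 5 to 10 kb. Another 478 lay 10 to 50 kb, 179 lay 50 to 100 kb and 138 lay farther away. The medians of these groups ran from 5.17 to 5.59, with overlapping intervals. Those more than 100 kb from a coding end had the median of 5.59, and 18.1% of them reached a fold enrichment of 10 (12.1 to 25.6).

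Many lncRNA-end summits had company. The next V5-KLF5 summit lay a median of 3959 bp away, and within 2 kb for 708 of them, while 135 had none within 50 kb. These distances were not computed for the other peaks, so such closeness is not shown to be particular to lncRNA ends. Of the lncRNA genes, 274 had 2 or more lncRNA-end summits and 35 had 3 or more. Gm52312, a gene of 9038 bp inside Synj2, a phosphoinositide phosphatase gene, had 5 with fold enrichments of 3.21 to 11.6. Gm30543, inside Ltbp4, had 5 of 3.39 to 4.79, and Gm16104, inside the transcription factor gene Nfic, had 4 of 3.43 to 10.1. Gm31342 had 4 of 3.31 to 7.57. Another 31 genes had 3, and Gm36744 on chromosome 2, the first of these by position, had fold enrichments of 13.7, 4.28 and 3.66. In all, 63 summits lay within 1000 bp of 2 or 3 lncRNA genes.

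The lncRNAs known from ES cells were described first among the listed genes. The lists were written with earlier results of these data known, so their counts are descriptions. Most listed genes with a lncRNA-end summit are curated, whereas the 13.9% given here and below covers curated and predicted genes together. Of spaced curated lncRNA genes, 19.5% had a summit within 1000 bp of an end. Of 28 listed ES cell and pluripotency lncRNA genes on chromosomes 1 to 19, 14 had a lncRNA-end summit, where 13.9% of all lncRNA genes had one. Their median strongest summit was 8.46, against 5.54 over all genes with such a summit. The Platr genes (pluripotency-associated transcripts) Platr22, Platr9, Platr26, Platr29, Platr8, Platr4 and Platr10 had fold enrichments of 29.0, 15.3, 14.9, 9.27, 7.65, 3.93 and 3.31. Those of Platr22, Platr9, Platr26 and Platr8 lay 59 to 172 bp from the 5′ end. The strand of Platr29 and Platr4 was not known, and the summit of Platr10 lay 976 bp inside its 3′ end.

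Oip5os1, also called Cyrano and known to bind the microRNA miR-7, had its summit 8 bp upstream of its start, with a pileup of 58 and a fold enrichment of 9.27. Dubr, studied in muscle differentiation, had 10.9 at 5 bp inside its start, 141614 bp from the nearest coding end. Tunar, which has been linked to pluripotency and neural differentiation, had 7.15 at 285 bp upstream. Lncenc1, an ES cell lncRNA, had 6.13 at 149 bp inside its start. Halr1, beside the Hoxa cluster, had 3.93 at 13 bp from its start. Trp53cor1, known as lincRNA-p21, had 2 summits, of 4.87 and 3.92.

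Listed ES cell genes without any summit within 1000 bp of an end were Platr3, Platr5, Platr6, Platr7, Platr11, Platr14, Platr27, Platr30, Sox2ot, Lncpint and Mira. Gas5, Panct2 and Platr20 had summits that also lay within 1000 bp of a coding end and so fell outside the rule.

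Nuclear and widely expressed lncRNAs had 5 of 11 genes with a lncRNA-end summit, against 13.9% of all lncRNA genes. Neat1, the scaffold RNA of paraspeckles, had the strongest. Its peak spanned 3021 bp at 5844862 to 5847882 on chromosome 19, with the summit 186 bp outside the gene, a pileup of 120 and a fold enrichment of 24.4. Dancr, which also hosts a small nucleolar RNA, had 11.5 at 32 bp inside its start. Miat had 8.19. Malat1, an abundant RNA of nuclear speckles, had 7.54 at 107 bp upstream of its start and 3.45 beyond its 3′ end. Epb41l4aos had 2 summits, of 5.71 and 2.91. Tug1, Gas5 and Zfas1 had summits within 1000 bp of a coding end, and Norad, Kcnq1ot1 and Pvt1 had none near an end.

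Imprinted lncRNAs had 2 of 10. Peg13 had 5.38, and Mirg, a microRNA host of the Dlk1 and Meg3 cluster, had 3.90 at 567 bp beyond its 3′ end. No summit lay within 1000 bp of an end of H19, Meg3, Rian, Airn, Kcnq1ot1, Snhg14, Ipw or Nctc1. A share of 2 in 10 is close to the 13.9% of all lncRNA genes.

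Lineage and developmental lncRNAs had 14 of 30, against 13.9% of all lncRNA genes. Besides Evx1os, Hand2os1, a transcript beside the heart gene Hand2, had 11.5, at 879 bp inside its 3′ end. A summit inside Hotairm1 and 211 bp outside Hotairm2, in the Hoxa cluster, had 8.90. Chaserr, which lies upstream of the chromatin remodeller gene Chd2, had 3 summits of 2.66 to 6.84. Six3os1 had 6.35, Bvht (Braveheart) 5.91, Hoxb3os 5.37 and Sox1ot 4.97. Fendrr, known from heart and body wall mesoderm, had 4.39 at 132 bp upstream of its start. Tbx3os2, Pantr2, Tbx3os1 and Nkx2-2os had 3.75, 3.66, 3.04 and 2.86. Halr1 also stands in this list. The median strongest summit of the list was 5.17, below the 5.54 over all genes with a lncRNA-end summit, with Evx1os, Hand2os1 and Hotairm1 at its top.

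**Figure D4:**
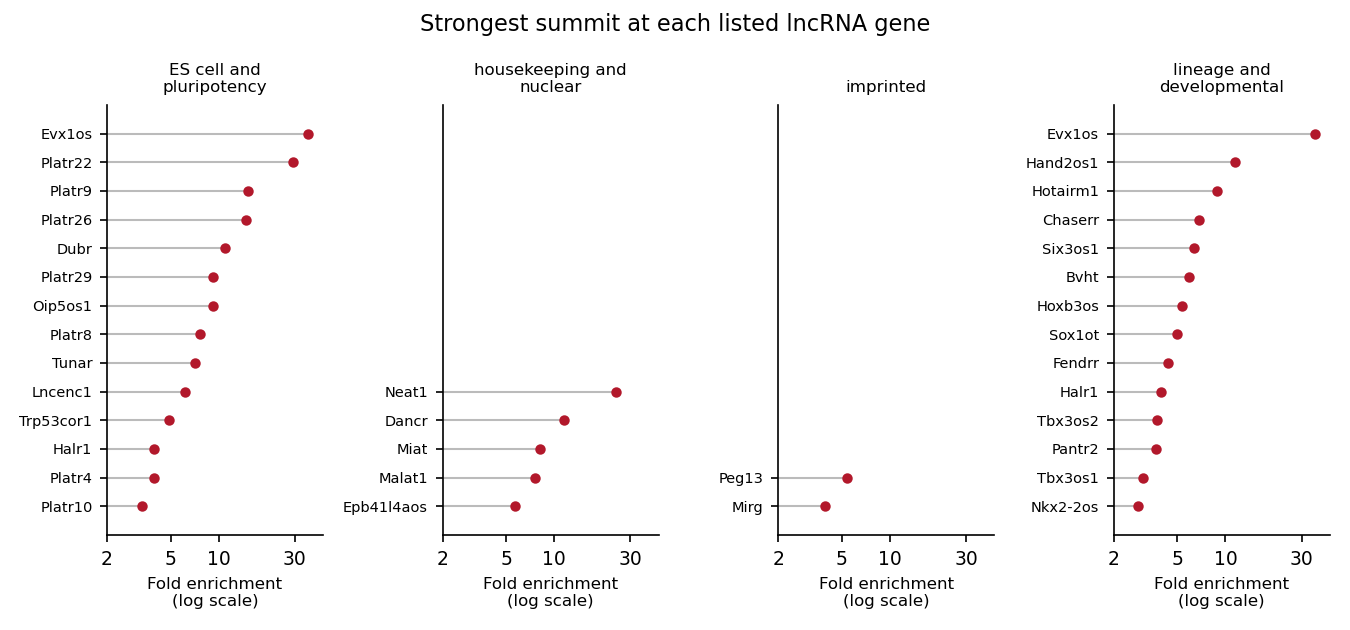
Fold enrichment (logarithmic axis) of the strongest lncRNA-end summit at each listed lncRNA gene that had one, in 4 lists. The ES cell list runs from 3.31 (Platr10) to 36.4 (Evx1os), and the imprinted list holds 3.90 and 5.38 alone; Evx1os and Halr1 stand in 2 lists.

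Name families described the rest. Genes named Gm made up most of the set, with 1272 of 9879 genes having a lncRNA-end summit (12.9%), and RIKEN cDNA genes had 295 of 1751 (16.8%). LOC models had 32 of 300 (10.7%). Antisense and opposite-strand genes had 43 of 214 (20.1%, 14.9 to 26.1), with a median strongest summit of 6.35, led by Evx1os, G6bos and Kif16bos (22.9). The Kif16bos summit lay 108 bp inside the 5′ end and 1464 bp from the start of Kif16b, a kinesin gene. The strongest of the LOC models were LOC115487808 with 16.2, LOC118027456 with 12.2 and LOC115486505 with 9.26. In the RIKEN family 1700012D01Rik followed the summits already named, with 23.0. Among other names, AW549542 had 16.1.

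Host genes of small nucleolar RNAs (snoRNAs), which guide chemical modification of ribosomal RNA, had a lncRNA-end summit at 13 of 21 genes (61.9%, 38.4 to 81.9), against 13.9% of all lncRNA genes. Strength was ordinary, with a median of 5.77 for the strongest summit of each gene. Snhg5 led with 12.1 at 198 bp upstream of its start, followed by Snhg4 with 11.3 at 1 bp inside an end and Snhg9 with 10.7 at 22 bp inside its start. Snhg8, Snhg17 and Snhg11 had 8.79, 7.36 and 7.32. Of the 18 summits at these genes, 17 stood on an input background above the genome-wide floor of 3.10 (94.4%), against 61.8% of all lncRNA-end summits. The part of the raised input in this count was not tested.

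**Figure D5:**
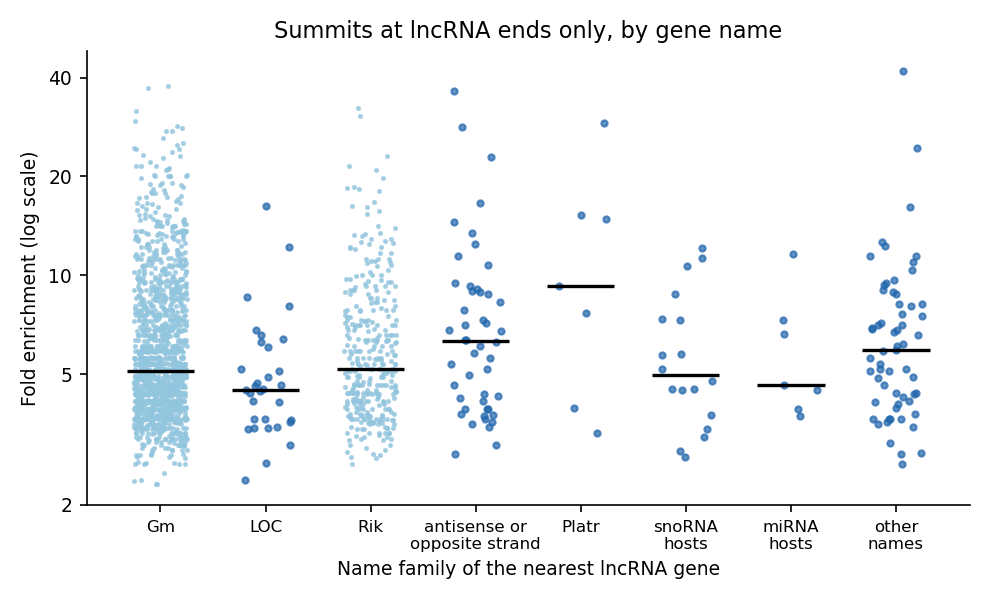
Fold enrichment (logarithmic axis) of each lncRNA-end summit by name family of the nearest lncRNA gene; each point is a summit and the bar the median. Medians lie between 4.48 (LOC) and 9.27 (Platr, 7 summits), and the families overlap widely.

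MicroRNA hosts had 5 of 15 genes (33.3%, 11.8 to 61.6, an interval that includes the 13.9% of all lncRNA genes), led by Mir22hg with 11.6, Mir9-3hg with 7.32 and Mir124a-1hg with 6.61. Summits also lay at 2 microRNA clusters of ES cells whose host carries another name, chosen here after their values were seen. Mature sequences from RefSeq (GRCm38.p6) are shown because members of both clusters share a seed (bases 2 to 8, in capitals), the part of a microRNA that pairs with its targets.
mmu-miR-294-3p: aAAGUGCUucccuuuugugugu
mmu-miR-295-3p: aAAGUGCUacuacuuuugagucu
mmu-miR-302b-3p: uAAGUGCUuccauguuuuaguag
mmu-miR-302d-3p: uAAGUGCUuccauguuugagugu
mmu-miR-367-3p: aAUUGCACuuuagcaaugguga

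The first 2 come from the cluster in D7Ertd143e on chromosome 7, known for its high level in ES cells, and the last 3 from the cluster at Gm51018 on chromosome 3. All but miR-367-3p carry the seed AAGUGCU. D7Ertd143e had 2 lncRNA-end summits. One at 3221381 lay 366 bp beyond its 3′ end, with a pileup of 36 and a fold enrichment of 9.03. The other, at 3220449, lay inside the gene with a pileup of 17 and 3.58. At Gm51018 the summit lay 258 bp upstream of the start, with a pileup of 37 on a background of 5.37 and a fold enrichment of 5.97. Near Mir149 a summit of 20.3 lay 889 bp upstream of Gm29480. In all, 10 lncRNA-end summits lay within 1000 bp of a microRNA gene, 16 of a snoRNA gene and 17 of a tRNA gene. Their medians were 4.58, 5.64 and 4.82. Neighbouring small RNA genes were not counted for the other peaks, so no excess over the whole list is shown. Near tRNA genes, the summits at Gm39054 and 2310047D07Rik were the 2 above 10.

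Promoter sequence could be read for 401 RefSeq windows of 300 bases, from 375 lncRNA genes, that held a lncRNA-end summit. At least 1 of the motifs GGGNGGGG, GGGCGGGG and CCACACCC was present on either strand in 57.6% of them (52.6 to 62.5), against 35.6% of all 31395 windows. The reverse complements searched were CCCCNCCC, CCCCGCCC and GGGTGTGG. In 8261 lncRNA windows more than 2000 bp from coding ends and with no summit within 1000 bp the share was 18.4%, and in 5469 coding windows holding a summit 62.0%. GGGNGGGG was in 50.1% of the windows with a lncRNA-end summit and in 33.4% of all windows, and GGGCGGGG in 24.7% and 17.8%.

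The 2 kinds of motif were divided differently between lncRNA and coding starts. GGGCGGGG was in 43.0% of coding windows with a summit (41.7 to 44.4), above the 24.7% (20.5 to 29.2) of lncRNA windows with one. CCACACCC was in 11.2% of the lncRNA windows with a summit (8.30 to 14.7) and 4.96% of the coding ones (4.40 to 5.56), against 3.57% of all windows. Base composition moved with these counts. Median GC content was 57.3% in lncRNA windows with a summit, 63.3% in coding windows with one and 46.7% in lncRNA windows without. The median number of CpG dinucleotides was 11, 23 and 3. The part of base composition in the motif shares was not tested.

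Matches also lay close to the summit. In the 291 windows that held 50 bases on both sides of it, 36.4% (30.9 to 42.2) of these 101-base stretches contained a match. The same stretches cut from all windows did so in 16.8%, and from lncRNA windows without a summit in 7.36%. Windows with a match had a median fold enrichment of 5.61 (231 windows, 15.6% at 10 or more) and those without 4.82 (170 windows, 8.82%), against 13.0% of all peaks. The 45 windows with CCACACCC had 6.96, with 22.2% at 10 or more, a median GC content of 53.3% and a median of 5 CpG. The 99 with GGGCGGGG had 5.97, with 17.2%, 62.7% and 17. The windows with CCACACCC thus had fewer CpG than those with GGGCGGGG. Peaks at 10 or more were 10.6% of 217 windows with at least 10 CpG and 15.2% of 184 with fewer.

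Chromosomes differed moderately. LncRNA-end summits made up 3.37% of peaks on chromosome 14 and 5.83% on chromosome 12, the lowest and highest shares. The share of lncRNA genes with one ran from 7.30% on chromosome 14 to 18.7% on chromosome 5. The median fold enrichment lay between 4.46 on chromosome 3 and 5.86 on chromosome 9, and 4.23% and 21.8% of the summits on these chromosomes reached 10.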

How the data were processed

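Peaks were called by the authors with MACS2 2.1.0.20140616 on single libraries against the input of the same cells (mm10), per the file headers: tags of 51 bp were extended to 250 bp, 1 tag per position was kept and the q-value cutoff was 0.05. Bowtie 0.12.8 stands in the submitters' processing notes. The deposited values are the pileup signal at the summit, the fold enrichment ratio (pileup + 1 over input background + 1) and −log10 p-values and q-values. The V5-KLF5 library kept 23.2 M tags (mega) and its input 30.2 M.

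The input background was recovered from pileup and fold enrichment. Gene ends and biotypes came from RefSeq (GRCm38.p6, the assembly mm10 names), strand and sequences from its promoter table. Summits were placed with Python 3.11.15 and pandas 2.3.3, tested on simulated data. Intervals at 95% are Clopper-Pearson for shares, Poisson for densities and binomial for medians (scipy 1.17.1). They cover counting error, since each group has 1 library. No test was run.

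Named are the 15 strongest and 2 weakest summits, the 5 genes with most summits (ties by position), the listed genes, the 3 strongest of each family, summits at the window's edge and overlaps with controls. Members and lists were chosen with earlier results of these data known. Alternatives covered the window, the q threshold, the background, the gene models and the measure of strength.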

Additional observations from a re-analysis of the deposited data

Results flagged for a closer look

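Chromosome X was outside the rule. Of its 600 V5-KLF5 peaks, 19 met the same position rule (3.17%), with a median fold enrichment of 5.37, while neither control list had a peak there. They were listed because they carry signal outside the comparisons above the level in the controls, which held 3 and 0 peaks in all. The strongest, at Platr21, had 10.3. On chromosome Y, 0 of 6 peaks met it.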

How the results depend on the processing

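No paired analysis was possible because each group has 1 library, for which reason no replicate was left out. Main values were 1971 summits, a median fold enrichment of 5.17, 14.3% at 10 or more, a log2 ratio to coding ends of -0.12, 13.7% of spaced lncRNA genes and a ratio to bases of 2.46. The ratio of 5′ to 3′ density, 7.60, was chosen after the data were seen. A window of 500 bp gave a log2 ratio of -0.17, 10.1% of genes and a ratio to bases of 3.25, and 2 kb gave 18.3% and 1.89. With coding ends over 5 kb away they were -0.054, 12.4% and 2.12. A −log10 q of at least 5 gave a median of 5.86, 17.7% at 10 or more, a log2 ratio of -0.059 and 11.8% of genes. At 10 it left 927 summits, with a median of 7.97, 30.4%, a log2 ratio that reversed to 0.054, and 7.15% of genes; the cause was not tested. Peak midpoints gave -0.13. Curated genes left 695 summits, with 5.37, 16.1%, -0.061, 19.5% of genes, 3.49 and a 5′ to 3′ ratio of 13.8. Without Gm and LOC genes 496 summits stayed, with 5.37, -0.061, 20.1%, 3.59 and 18.3. The interval of the log2 ratio was -0.13 to -0.064 in the main setting. It reached 0 with coding ends over 5 kb away (-0.067 to 0). With curated genes (-0.13 to 0.0031) and without Gm and LOC genes (-0.13 to 0.037) it included 0. As pileup the median was 24.0. Leaving out backgrounds above the 95th percentile gave 1861 summits, a median of 5.17, 13.2% of genes and a ratio to bases of 2.44. The 5′ to 3′ ratio stayed above 1 under each alternative it was computed for, at 5.90 to 18.3.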
